A study of Mus musculus with 9 samples.

Results

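The subject is 8 receptor genes whose proteins raise or lower cyclic AMP (cAMP), chosen by gene symbol from a deposited table of 35673 symbols. They are the adenosine receptor genes Adora2a, Adora2b and Adora3, the prostaglandin E2 receptor genes Ptger2, Ptger3 and Ptger4, the prostacyclin receptor gene Ptgir and the histamine H2 receptor gene Hrh2. All 8 were in the table and all 8 were among the 21341 genes with enough reads to test. RNA was sequenced in bulk from basophils grown out of C57BL/6J wild-type bone marrow for 7 days in 0.3 ng/mL IL-3 and taken by their CD49b. Each library came from 10000 such cells after 4 hours of treatment, and each of the 3 groups holds 3 libraries. PBS with the solvent DMSO made the resting group. The stimulated group was given DMSO plus the cytokines IL-3 (10 ng/mL) and IL-33 (10 ng/mL). The difamilast group had the same cytokines with 3 μM difamilast, which inhibits phosphodiesterase 4, an enzyme that breaks cAMP down. CD49b is also carried by cells other than basophils, and whether the replicates came from different cultures or mice is not stated, so the p-values measure only how far these samples vary, and that variation may be technical.

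These receptors sit in the plasma membrane and pass the signal of a small mediator to a G protein. The products of Adora2a, Adora2b, Ptger2, Ptger4, Ptgir and Hrh2 couple to Gs, which switches adenylyl cyclase on. The product of Adora3 and most forms of that of Ptger3 couple to Gi, which restrains it. In basophils and mast cells, agents that raise cAMP are known to restrain degranulation and cytokine release, and histamine, prostaglandins and adenosine can all be formed in inflamed tissue.

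The 9 libraries held between 6261446 and 38098584 counts, with the 3 resting libraries among the 4 shallowest, and the 8 receptors together took between 0.0279% and 0.0641% of a library. Replicates of a group differed by more than read sampling, the chi-square of their counts divided by its degrees of freedom being 4.54 to 48.7 over the 9 pairs, so each was kept as a library of its own. Basophil markers were plentiful: the summed level of 9 of them ran from 4325 to 5910 CPM (counts brought to a common library size with TMM scaling) at rest, 9097 to 9702 with cytokines alone and 8700 to 8881 with difamilast. The summed level of 10 monocyte and macrophage markers, led by Lyz2, ran from 4273 to 5141, 3277 to 3371 and 3092 to 3343 CPM. That of 7 mast cell markers, led by Tpsb2, ran from 468 to 776, 742 to 811 and 698 to 721 CPM. Erythroid and megakaryocyte markers summed to 386 to 604, 239 to 287 and 293 to 348 CPM. Dendritic cell markers summed to 332 to 391, 281 to 297 and 247 to 258 CPM. Sums of the remaining cell types were at most 112 CPM. No marker gene of the 9 cell types examined was at 0 in all libraries. In bulk RNA, fewer cells of a type and less RNA per cell cannot be told apart, and which cells held a receptor transcript was not tested.

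For 4 of the genes, picked by their changes, the sequence just upstream of the start is shown. Adora2b and Hrh2 rose with stimulation and lay lower with difamilast, Ptger3 fell with stimulation, and Adora3 lay higher with difamilast. Adora2a also lay higher with difamilast, by more than Adora3, but no upstream sequence was available for it. Each sequence is the 250 bases before the RefSeq gene start (GRCm38.p6, read 5′ to 3′ on the gene's strand, which is the plus strand for all 4), at chr11:62248734-62248983, chr13:54191883-54192132, chr3:157566626-157566875 and chr3:105904171-105904420. Capitals mark matches on either strand to the GC box, which reads GGGCGG, to the CCAAT box, named by its letters, or to an AP-1 site, which reads TGANTCA.
Adora2b: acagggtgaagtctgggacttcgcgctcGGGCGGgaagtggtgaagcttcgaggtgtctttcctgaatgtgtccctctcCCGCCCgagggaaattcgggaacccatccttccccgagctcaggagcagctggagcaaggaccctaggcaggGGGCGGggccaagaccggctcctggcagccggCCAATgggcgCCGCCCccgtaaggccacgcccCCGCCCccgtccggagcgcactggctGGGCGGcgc
Hrh2: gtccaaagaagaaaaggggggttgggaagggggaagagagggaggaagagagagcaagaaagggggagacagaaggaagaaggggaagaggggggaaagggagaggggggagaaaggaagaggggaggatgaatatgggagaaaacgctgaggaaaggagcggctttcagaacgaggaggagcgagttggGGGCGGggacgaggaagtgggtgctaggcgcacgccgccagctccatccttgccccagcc
Ptger3: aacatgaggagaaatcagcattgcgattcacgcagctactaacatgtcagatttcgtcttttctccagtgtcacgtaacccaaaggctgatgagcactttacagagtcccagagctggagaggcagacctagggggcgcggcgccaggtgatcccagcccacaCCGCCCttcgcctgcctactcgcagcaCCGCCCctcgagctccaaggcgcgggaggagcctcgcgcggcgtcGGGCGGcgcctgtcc
Adora3: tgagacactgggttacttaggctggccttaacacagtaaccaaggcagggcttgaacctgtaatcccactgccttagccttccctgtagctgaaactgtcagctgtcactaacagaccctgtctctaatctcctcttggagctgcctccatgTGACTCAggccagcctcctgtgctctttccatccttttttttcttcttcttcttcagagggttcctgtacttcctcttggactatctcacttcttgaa
The Adora2b window held 6 GC boxes, and 69.6% of its bases were G or C, against a median of 52.4% over 32851 windows of that length. Of the 7 receptors matched to a window (all but Adora2a), 5 held a GC box, as did 32.7% of all windows, and 3 held a CCAAT box, against 33.8%. The AP-1 letters occurred in the Adora3 window alone among the 7, 98 to 92 bases before the RefSeq start, and in 6.75% of all windows. The annotations differ for this gene: its window lies inside the GENCODE gene, which begins further upstream at 105870858, and the sequence before that start was not examined. The cAMP response element, TGACGTCA, occurred in none of the 7 windows and in 1.55% of all. Its short form, TGACG, which the long one contains, also occurred in none and in 17.8% of all. The STAT letters TTCNNNGAA (7.02% of all) and the NF-kB consensus (7.25%) occurred in none of the 7 either. Both strands were searched. The GC and CCAAT boxes were added to the search after the sequences had been read.

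Stimulation with IL-3 and IL-33 raised 4 of the 8 receptor transcripts and lowered 1. Adora2b, Hrh2, Adora2a and Ptger4 rose and Ptger3 fell. All 4 that rose encode Gs-coupled receptors, as do 6 of the 8 chosen, and the 1 that fell encodes a Gi-coupled one. Those 5 called genes compare with 31.7% of all tested genes called in either direction, 15.3% higher and 16.4% lower (edgeR's quasi-likelihood test, called at an adjusted p under 0.05 over all tested genes). The median log2 fold change of the 8 was 0.68, beside 0.06 over all tested genes. The groups did not overlap for 6 of the 8, against 43.7% of all tested genes; the 6 included Ptgir, which was not called. Monocyte and macrophage markers moved in the same comparison: 6 of 10 were lower and none higher, with a median log2 fold change of -0.48. Of the 9 basophil markers, 6 were higher and 1 lower. The part of either in the receptor changes was not tested.

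**Figure D1:**
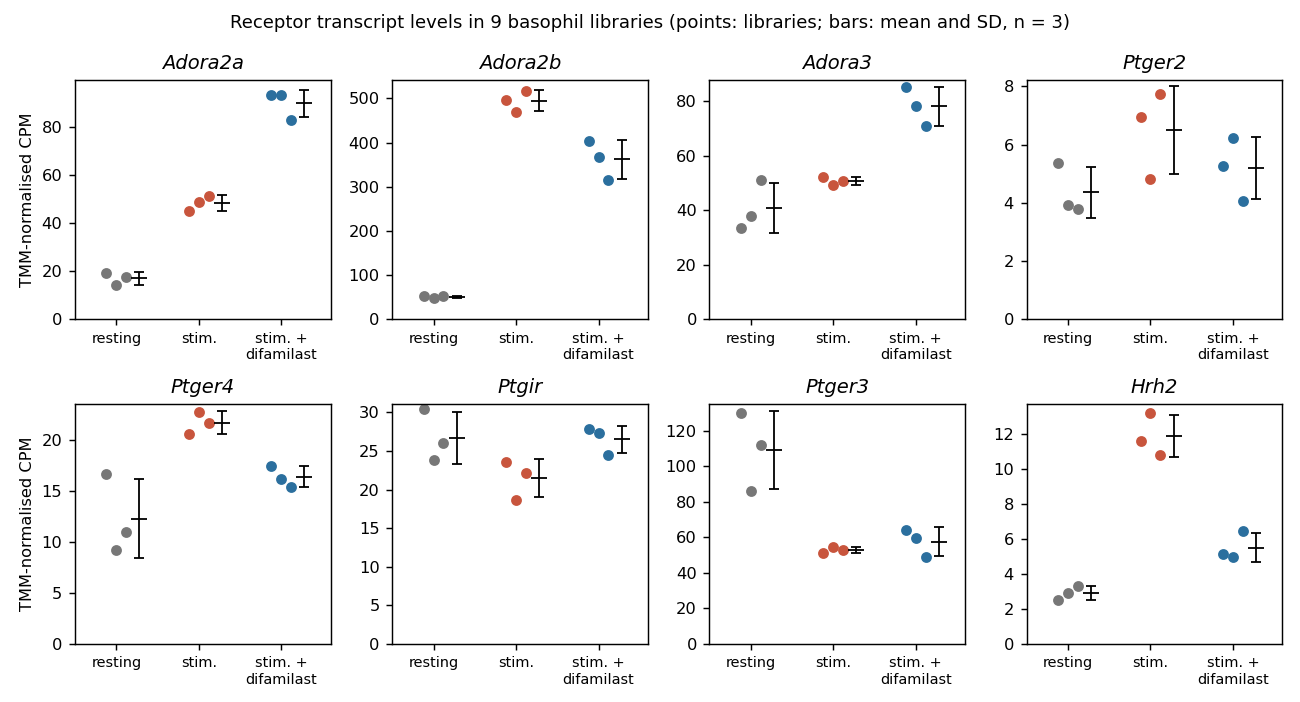
Level of each receptor transcript (vertical axis, TMM-normalised CPM) in the 3 resting, 3 stimulated and 3 difamilast libraries (points), with the mean and SD of each group beside them. Adora2b stands between 48.8 and 52.6 CPM in the resting libraries and between 470 and 517 in the stimulated ones, and Ptger3 is the only panel in which all resting libraries lie above all others.

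Among the adenosine receptors, Adora2b (chromosome 11, 62248984 to 62266453, plus strand), the receptor that answers to high adenosine concentrations, moved furthest. Its level was 52.0, 48.8 and 52.6 CPM in the resting libraries, 496, 470 and 517 in the stimulated and 403, 367 and 316 in the difamilast libraries. Each group stood apart from the others, and stimulated libraries were the highest. The rise with stimulation was 9.68-fold, or 3.28 ± 0.12 (SE) on the log2 scale (adjusted p = 2.76e-11), and in the 16 alternative fits it ran from 3.2 to 3.31.

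Adora2a (chromosome 10, 75316877 to 75334784, plus strand) encodes a high-affinity adenosine receptor. Its level was 19.2, 14.1 and 17.6 CPM at rest, 44.8, 48.7 and 51.3 with cytokines alone and 92.9, 92.9 and 82.9 with difamilast. The groups did not overlap and rose in that order. Stimulation raised it 2.86-fold (log2 fold change 1.51 ± 0.13 SE, adjusted p = 3.54e-07).

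Adora3 (chromosome 3, 105870858 to 105908926, plus strand), the Gi-coupled member, lay at 33.3, 37.9 and 51.2 CPM at rest, 52.3, 49.1 and 50.8 with cytokines alone and 85, 78.1 and 70.8 with difamilast. Resting replicate 3 lay within the stimulated range, so these groups overlapped, while every difamilast library was above all others. The log2 fold change with stimulation was 0.32 ± 0.14 (SE; adjusted p = 0.0985), and without resting replicate 3 it was 0.48 and passed (adjusted p = 0.0111), while without resting replicate 1 it was 0.17 (adjusted p = 0.339). Adora3 shares 779 of its 3729 annotated exonic bases with Tmigd3 on the same strand, so reads of the shared part could have been given to either. Tmigd3 had mean levels of 20.4, 23.0 and 31.8 CPM in the 3 groups.

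Among the prostanoid receptors, Ptger3 (chromosome 3, 157566892 to 157645888, plus strand), which encodes the Gi-coupled EP3 receptor, was the most abundant in counts. It lay at 130, 86.3 and 112 CPM in resting libraries and fell to 51.3, 54.4 and 52.7 in stimulated ones, with 64.3, 59.5 and 48.7 under difamilast. Every resting library was above every other library, and the difamilast range enclosed the stimulated one. The fall was 2.07-fold (log2 fold change -1.05 ± 0.15 SE, adjusted p = 5.08e-05).

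Ptger4 (chromosome 15, 5206661 to 5244187, minus strand), which encodes the Gs-coupled EP4 receptor, moved the other way. It lay at 16.7, 9.25 and 11 CPM at rest, 20.6, 22.8 and 21.7 with cytokines alone and 17.5, 16.2 and 15.4 with difamilast. Stimulated libraries were above all others, and resting replicate 1 lay inside the difamilast range. The rise was 1.76-fold (log2 fold change 0.81 ± 0.19 SE, adjusted p = 0.00379). On the opposite strand, Gm15937 covers 1015 of the 6648 exonic bases of Ptger4. The use of strand in counting is not given in the sources used here, but Gm15937 had at most 0.467 CPM as a group mean. Ttc33, also opposite, shares 82 bases and had 23.3 to 28.4 CPM.

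Ptgir (chromosome 7, 16906490 to 16910905, plus strand), the prostacyclin receptor gene, lay at 30.5, 23.8 and 26.0 CPM at rest, 23.6, 18.7 and 22.2 with cytokines alone and 27.8, 27.3 and 24.5 with difamilast. Stimulated libraries were the lowest, by a small gap. The log2 difference was -0.32 ± 0.14 (SE; adjusted p = 0.0982) and passed only without resting replicate 2 (-0.45, adjusted p = 0.0414) among the alternatives, while without stimulated replicate 2 it was -0.22 (adjusted p = 0.354).

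Ptger2 (chromosome 14, 44988195 to 45003820, plus strand), which encodes the Gs-coupled EP2 receptor, was scarce. It had between 3.80 and 5.38 CPM at rest, 4.81 and 7.72 with cytokines alone and 4.08 and 6.21 with difamilast, from 30 counts in the shallowest library to 238. All 3 groups overlapped. On the opposite strand Gm17173, with group means of 0.34, 2.01 and 1.82 CPM, shares 246 of its 5193 exonic bases. The Ptger2 log2 fold change with stimulation was 0.55 ± 0.24 (SE; adjusted p = 0.0994), and without stimulated replicate 2 it was 0.75 and passed (adjusted p = 0.0434), while without stimulated replicate 3 it was 0.39 (adjusted p = 0.333).

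Hrh2 (chromosome 13, 54192129 to 54236180, plus strand), the receptor through which histamine raises cAMP, was the scarcest of the 8 at rest. It had 2.52, 2.92 and 3.29 CPM at rest, 11.6, 13.2 and 10.8 with cytokines alone and 5.12, 4.97 and 6.45 with difamilast. The resting values rest on 36, 53 and 26 counts, and no group overlapped another. The rise was 4.13-fold (log2 fold change 2.05 ± 0.20 SE, adjusted p = 1.36e-06) and lay between 1.92 and 2.12 in all 16 alternatives.

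Difamilast, added to the same cytokines, moved the 3 adenosine receptor genes and Hrh2 and, by this test, none of the 4 prostanoid receptor genes. Adora2a and Adora3 were higher and Adora2b and Hrh2 lower than in stimulated cells with vehicle, and the calls of Adora3 and Adora2b did not hold without some single libraries. These 4 called genes compare with 3.44% of all tested genes, 2.21% higher and 1.24% lower, a lean towards higher calls that shrank or turned in some alternatives (831 higher and 842 lower in a fit of the compared groups alone). The groups did not overlap for 6 of the 8 receptors, against 24.8% of all tested genes. The median log2 fold change of the 8 was -0.09, beside 0.00 over all genes. None of the 10 monocyte and macrophage markers was called in this comparison, and 1 of the 9 basophil markers was lower. Both comparisons use the stimulated libraries, so a high or low stimulated value pushes the changes of a gene in opposite directions.

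**Figure D2:**
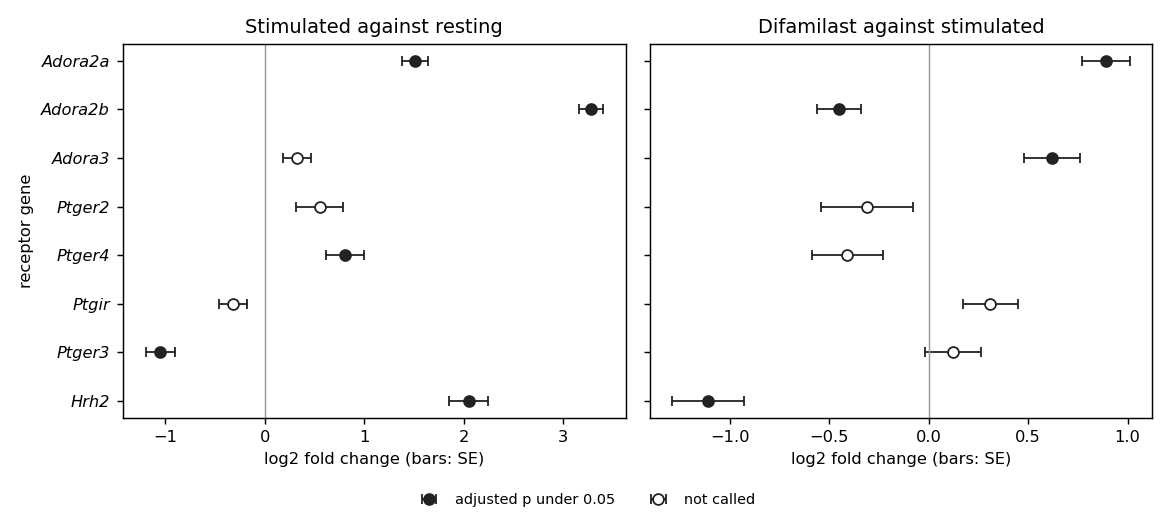
Log2 fold change (horizontal axis, with its SE) of each receptor gene for stimulated against resting (left) and difamilast against stimulated (right); filled points passed at an adjusted p under 0.05. Adora2a lies right of 0 in both panels (1.51 and 0.89), whereas Adora2b (3.28 and -0.45) and Hrh2 (2.05 and -1.11) change side; the horizontal scales differ.

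Adora2a rose a further 1.85-fold with difamilast (log2 fold change 0.89 ± 0.12 SE, adjusted p = 0.00043), and over 16 alternatives its adjusted p ran from 3.46e-09 to 0.00753. Hrh2 fell 2.16-fold (log2 fold change -1.11 ± 0.18 SE, adjusted p = 0.00148), with adjusted p from 1.31e-06 to 0.0205 over the same alternatives. These calls did not depend on any library.

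The other changes were smaller. Adora3 was 1.54-fold higher (log2 fold change 0.62 ± 0.14 SE, adjusted p = 0.0199). That call was lost without stimulated replicate 1 (adjusted p = 0.0813), 2 (0.119) or 3 (0.0968) and without difamilast replicate 1 (0.113) or 2 (0.0918), while the log2 fold change stayed between 0.56 and 0.69. Adora2b was 1.37-fold lower (log2 fold change -0.45 ± 0.11 SE, adjusted p = 0.0257). It was lost without stimulated replicate 1 (adjusted p = 0.128), 2 (0.0789) or 3 (0.147) and without difamilast replicate 2 (0.123) or 3 (0.0563), with a log2 fold change between -0.52 and -0.36. For both genes all 3 difamilast libraries lay on 1 side of all 3 stimulated ones.

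Of the prostanoid receptors, Ptger4 was at -0.41 ± 0.18 (log2, SE; adjusted p = 0.306) with groups that did not overlap. It passed in a fit of these groups alone (adjusted p = 0.0386) and without resting replicate 1 (adjusted p = 0.0482). Ptgir had 0.31 ± 0.14 (SE; adjusted p = 0.311), also without overlap, and passed in no alternative. Ptger2 (-0.31 ± 0.23) and Ptger3 (0.12 ± 0.14) had groups that overlapped (adjusted p = 0.602 and 0.775).

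**Figure D3:**
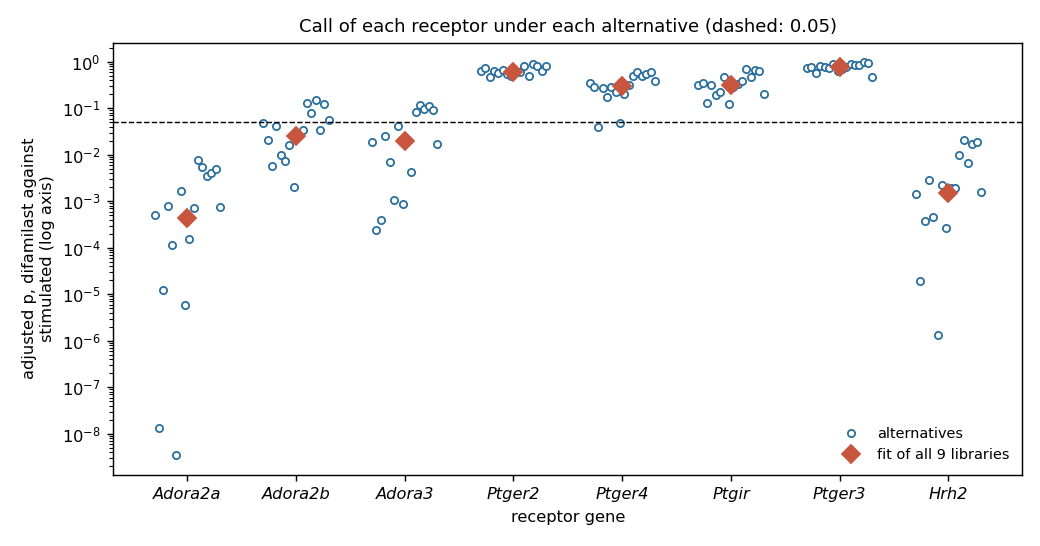
Adjusted p of each receptor gene for difamilast against stimulated (vertical log axis) in the fit of all 9 libraries (diamonds) and in 16 alternatives (circles); the dashed line is 0.05. All circles of Adora2a and Hrh2 lie below the line, those of Adora2b and Adora3 lie on both sides, with 5 of 16 above it for each, and Ptger4 crosses it in 2.

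Against resting cells, the combination of cytokines and difamilast left 5 receptors changed, 4 higher and 1 lower, where 32.8% of tested genes were called (16.4% in each direction). The groups did not overlap for those 5 and did for the other 3, against 42.9% of all tested genes. Adora2b stood 7.09-fold, Adora2a 5.29-fold, Adora3 1.93-fold and Hrh2 1.91-fold higher, and Ptger3 1.9-fold lower, with adjusted p from 7.92e-11 for Adora2b to 0.00241 for Hrh2. Ptger4 was at 0.41 ± 0.19 (log2, SE; adjusted p = 0.114) and passed without resting replicate 1 (0.68, adjusted p = 0.00192), while without resting replicate 2 it was 0.18 (adjusted p = 0.522). Ptgir was at -0.01 ± 0.14 (SE; adjusted p = 0.964), a value whose sign is not settled, and Ptger2 at 0.24 ± 0.24 (SE; adjusted p = 0.481). This comparison shares libraries with both of the others.

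Ratios of counts within a library need no scaling between libraries. They come from the same counts as the levels above, so they restate them and give no separate support. There were 2.70, 3.45 and 2.99 Adora2b reads for each Adora2a read in resting libraries, 11.1, 9.66 and 10.1 in stimulated and 4.34, 3.95 and 3.81 in difamilast libraries. The balance between these Gs-coupled adenosine receptors thus stood above 9 in every stimulated library and below 5 in every other one. Adora2b reads per Adora3 read went from 1.29 ± 0.267 (SD, n = 3) to 9.75 ± 0.376 and 4.64 ± 0.148. Among the prostaglandin E2 receptors, Ptger3 reads per Ptger4 read were 7.77, 9.33 and 10.2 at rest, 2.5, 2.39 and 2.43 in stimulated libraries and 3.68, 3.67 and 3.16 with difamilast. Ptger3 reads per Ptgir read were 4.07 ± 0.384, 2.49 ± 0.381 and 2.16 ± 0.162, with the last groups overlapping.

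**Figure D4:**
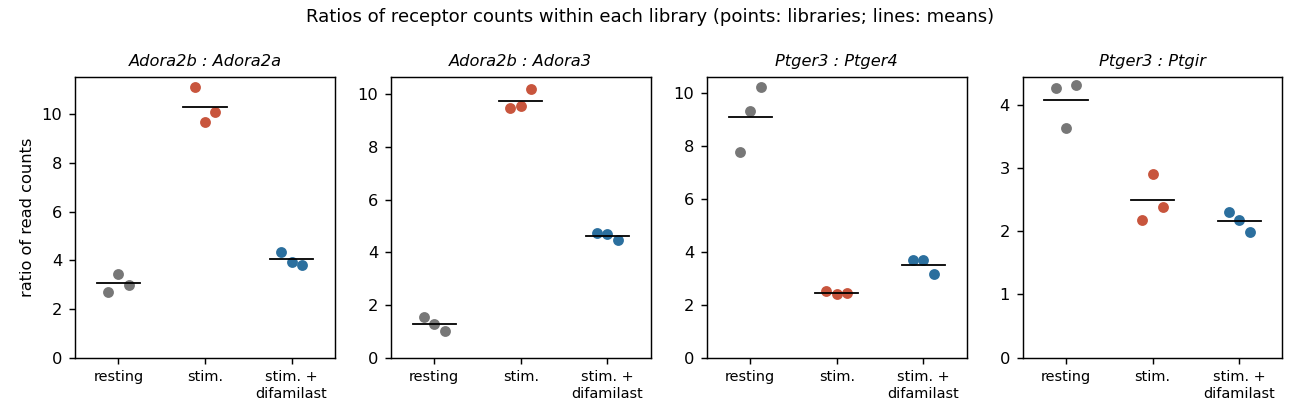
Ratio of the read counts of receptor genes (vertical axis) in each library (points, lines at the group means): Adora2b to Adora2a, Adora2b to Adora3, Ptger3 to Ptger4 and Ptger3 to Ptgir. The Adora2b ratios are highest in the stimulated libraries (means 10.3 and 9.75) and lie lower, at 4.04 and 4.64, with difamilast.

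To set the receptors beside each other, levels were divided by transcript length. Lengths are uncertain here: Adora2a has 4 annotated transcripts with a median of 569.5 bases and a longest of 2596, so both scales are given. In resting libraries Ptger3 stood first on both scales, at 34.8 CPM per kb by the median and 30.6 by the longest transcript, and Hrh2 last, at 0.714 and 0.690. The range of Ptger3 overlapped that of the next gene on each scale, Adora2a at 29.8 by the median and Adora2b at 27.7 by the longest transcript. By the median, Adora2a, Adora2b and Adora3 (24.5) also overlapped their neighbours, and by the longest, Ptgir (8.09) overlapped Adora2a (6.55). In stimulated libraries Adora2b stood first by both lengths at 268 CPM per kb. It was followed without overlap by Adora2a at 84.8 on the median scale and by Adora3 at 21.4 on the longest. In difamilast libraries Adora2b was again first, at 196, ahead of Adora2a at 157 or 34.5. Ptgir, Ptger4, Ptger2 and Hrh2 had group means of at most 8.87 CPM per kb on either scale. In that lower part of the order, Ptgir and Ptger4 overlapped in stimulated libraries and Ptger2 and Hrh2 in difamilast libraries.

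The Gi-coupled Adora3 and Ptger3 held 45.0% ± 2.18 (SD, n = 3) of the summed per-length level of the 8 receptors at rest, 11.3% ± 0.412 with cytokines alone and 15% ± 0.222 with difamilast. By the longest transcript the shares were 50.0%, 10.7% and 16.6%. A share also depends on the other receptors in the sum. By the median, Adora3 itself had 24.5, 30.5 and 46.9 CPM per kb in resting, stimulated and difamilast libraries. Ptger3 had 34.8, 16.8 and 18.3. Adora2b alone went from 21.2% ± 1.74 to 64.0% ± 0.992 and 45.0% ± 1.3, or from 29.2% to 78.9% and 66.5% by the longest transcript. The 3 adenosine receptors held 62.6% ± 3.73 of the sum at rest, 91.5% ± 0.256 with cytokines alone and 92.0% ± 0.0663 with difamilast. By the longest transcript these shares were 54.2%, 90.7% and 89.4%, so the small step between the last 2 groups turns with the length used. The summed level was 132 ± 15.1 CPM per kb at rest and 419 ± 16.3 with cytokines. With difamilast it was 435 ± 40.8 by the median and 295 ± 31.7 by the longest transcript, beside 340 ± 13.8 with cytokines on that scale, so whether the sum lay higher or lower with difamilast depends on the length given to Adora2a. These shares describe transcripts, and no test was made of a score over chosen genes.

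**Figure D5:**
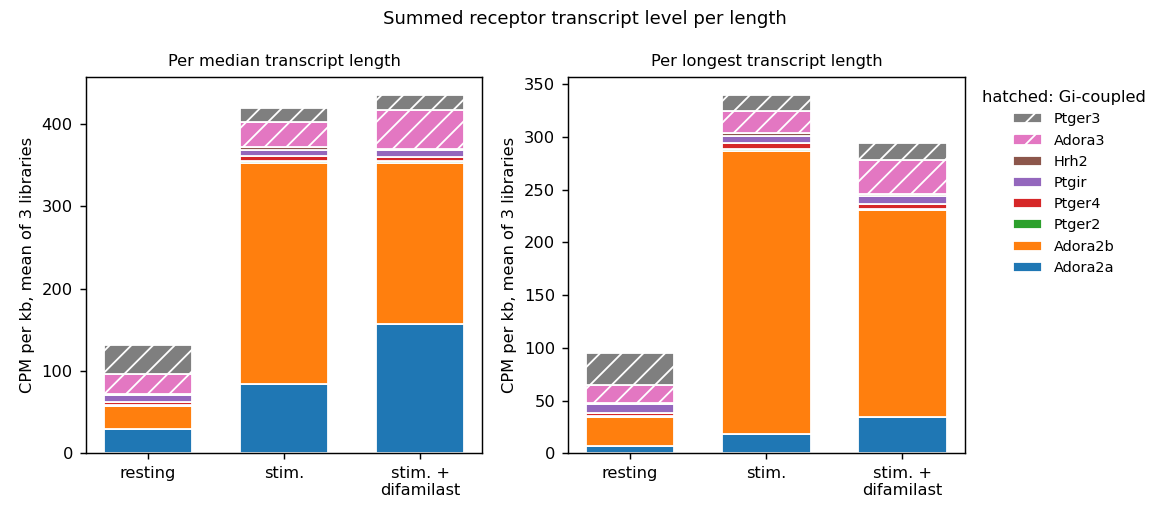
Summed level of the 8 receptor transcripts (vertical axis, CPM per kb, group means of 3 libraries) by median (left) and longest (right) annotated transcript length; colours are genes and hatching marks the Gi-coupled Adora3 and Ptger3. The hatched part takes 45.0% of the resting bar and 11.3% of the stimulated bar on the left, and Adora2b fills most of both stimulated bars.

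Remaining members of the receptor families were mostly scarce. Of 8 examined, 6 were tested, and 2 fell and none rose with stimulation, where 16.4% of all tested genes were lower and 15.3% higher. Hrh4, the Gi-coupled histamine receptor gene, went from 5.52, 3.41 and 4.69 CPM in resting to 0.856, 0.564 and 1.17 in stimulated libraries (log2 fold change -2.38 ± 0.33 SE, adjusted p = 4.38e-05), the opposite direction to Hrh2. Ptgfr, the prostaglandin F receptor gene, went from 25.0 ± 3.84 to 12.5 ± 0.527 CPM with stimulation (adjusted p = 6.03e-05) and to 22.4 ± 0.255 with difamilast (adjusted p = 0.00205), the single call of the 6 in that comparison, in which 3.44% of all tested genes were called. Ptger1, Ptgdr, Tbxa2r and Hrh1 had group means of at most 2.16 CPM and were not called. Adora1, the other Gi-coupled adenosine receptor gene, had 0 counts in 5 of 9 libraries and at most 12.

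Enzymes and transporters, most of which make, clear or carry the ligands, were counted from a list of 21 genes, of which 19 were tested. With stimulation 3 rose and 7 fell, beside 15.3% and 16.4% of all tested genes, and their median log2 fold change was -0.19, beside 0.06 over all tested genes. With difamilast 2 rose and 1 fell, beside 2.21% and 1.24%. On the adenosine side, Adk, the kinase that removes adenosine, fell from 95.8 ± 9 to 31.9 ± 0.939 CPM (log2 fold change -1.59 ± 0.11 SE, adjusted p = 4.77e-08), and Entpd1, the ectoenzyme CD39 that degrades extracellular ATP, fell from 17.2 to 8.04 CPM (adjusted p = 0.000109). Dpp4, a peptidase gene that the list counts with the adenosine genes, fell too (-0.75, adjusted p = 0.0256). Ada, the deaminase that also removes adenosine, rose (0.79, adjusted p = 0.0145). Dpp4 was lost without resting replicate 1 (adjusted p = 0.0981) or stimulated replicate 3 (0.126), and Ada without replicate 1 of either group (0.056 and 0.0585). Nt5e, the CD73 enzyme that forms adenosine from AMP, had 0.37 ± 0.14 (SE; adjusted p = 0.0553). None of the 7 genes tested on the adenosine side, Dpp4 included, was called with difamilast.

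On the prostaglandin side, Ptgs2, the inducible cyclooxygenase, had 115 ± 11.4, 938 ± 66.7 and 2101 ± 86.9 CPM in resting, stimulated and difamilast libraries and rose in both comparisons (adjusted p = 3.88e-11 and 7.92e-06). The prostaglandin exporter gene Abcc4 fell with stimulation from 11.7 to 3.58 CPM (adjusted p = 1.8e-05). Hpgd, the prostaglandin-degrading dehydrogenase, fell too, from 20, 13 and 11 counts (1.4, 0.716 and 1.39 CPM) to 0, 5 and 8 (0, 0.148 and 0.259 CPM, adjusted p = 0.00698). Only the resting libraries carried Hpgd past the filter on low counts, so it could enter the test only as a gene higher at rest. Ptgs1, the constitutive cyclooxygenase, fell with difamilast from 21.3 to 14.4 CPM (adjusted p = 0.0484), a call lost with RLE scaling (adjusted p = 0.0698), with the replicate block (0.0597), after removal of the length trend (0.155) and without any 1 of 7 of the 9 libraries (adjusted p = 0.0503 to 0.218). On the histamine side, Hdc, which forms histamine, rose with difamilast from 2277 ± 70.9 to 4518 ± 412 CPM (adjusted p = 0.00028) and was not called with stimulation (adjusted p = 0.162). Slc18a2, which loads histamine into granules, rose with stimulation from 204 to 525 CPM (adjusted p = 3.04e-08), while Hnmt, which inactivates histamine, and the transporter gene Slc22a3 fell (adjusted p = 0.0145 and 0.0107). Hnmt was lost without resting replicate 1 (adjusted p = 0.0801) or stimulated replicate 2 (0.065) or 3 (0.054), and Slc22a3 without resting replicate 1 (0.0651).

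In a list of 14 G proteins, adenylyl cyclases, arrestins and receptor kinases, none rose and 6 fell with stimulation, beside 15.3% and 16.4% of all tested genes. The arrestin genes Arrb1 and Arrb2, whose products uncouple activated receptors, fell from 54.7 to 20.5 and from 201 to 74.9 CPM (adjusted p = 1.52e-05 and 2.21e-08). The receptor kinase genes Grk6 and Grk2 fell (log2 fold change -0.97 and -0.33, adjusted p = 0.000182 and 0.0234), as did the adenylyl cyclase genes Adcy7 and Adcy9 (-0.73 and -1.67, adjusted p = 0.00309 and 0.00572). Grk2 was lost without stimulated replicate 1 (adjusted p = 0.06), 2 (0.055) or 3 (0.0808). With difamilast 1 of the 14 was called, beside 3.44% of all tested genes: Gnas, which encodes the Gs alpha subunit, was at 803, 817 and 588 CPM beside 509, 503 and 522 in stimulated libraries (log2 fold change 0.53 ± 0.12 SE, adjusted p = 0.0211). Gnas, Gpr65, Hrh2, Ptgfr, Ptgs1, Slc18a2, Slc22a3 and Dpp4 are among the named genes with annotated antisense partners. Reads of such partners cannot be told apart without strand. The Gnas call was lost without any 1 stimulated replicate (adjusted p = 0.107, 0.119 and 0.0904) and without difamilast replicate 1 (0.12) or 2 (0.165).

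Other receptors coupled to the same G proteins were counted in the same way. Of 25 in that list 21 were tested, and stimulation raised 8 and lowered 6, beside 15.3% and 16.4% of all tested genes, with a median log2 fold change of -0.10. Of 5 tested receptors coupled to Gs, 2 rose and 2 fell, and of 16 coupled to Gi, 6 rose and 4 fell. Among the 8 receptors, 4 of 6 coupled to Gs rose and 1 of 2 coupled to Gi fell. Whether changes differed by G protein was not tested in either list. The gene for the proton-sensing receptor Gpr65, coupled to Gs, fell with stimulation (25.3 ± 3.64 against 35.7 ± 4.47 CPM, adjusted p = 0.0143) and was higher with difamilast (48.1 ± 4.04 CPM, adjusted p = 0.000929). Gipr, the incretin receptor gene, had 0, 1 and 2 counts in resting and 34, 77 and 95 in stimulated libraries (adjusted p = 9.62e-06). At rest it lay near the floor (0, 0.055 and 0.253 CPM), and only libraries given cytokines carried it past the filter on low counts. With difamilast 3 of the 21 were higher and 3 lower, beside 2.21% and 1.24% of all tested genes. Among Gi-coupled receptors, the niacin receptor gene Hcar2 and the sphingosine 1-phosphate receptor gene S1pr1 were higher (log2 fold change 0.66 and 1.19). Hcar2 had group means of 87.7, 148 and 233 CPM in resting, stimulated and difamilast libraries, and S1pr1 had 108, 8.49 and 19.3. S1pr1 thus fell with stimulation (-3.67, adjusted p = 7.34e-11) and stayed below its resting level with difamilast (-2.48 against resting). C3ar1, the receptor of complement C3a, Ptafr and P2ry14 were lower with difamilast (-0.92, -0.51 and -0.52, adjusted p = 2.73e-05, 0.0154 and 0.0136). The calls of Ptafr and P2ry14 were each lost without any 1 of 5 libraries of the stimulated and difamilast groups.

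The genes whose levels followed each receptor most closely over the 9 libraries were found among 7837 named genes with a mean of at least 10 CPM, without predicted and ribosomal protein genes, by Pearson correlation of log2 CPM. With 3 groups of 3 libraries such a correlation mostly reflects the order of the group means. Hrh2 was followed most closely by Il4 (r = 0.996), the type 2 cytokine gene, with group means of 18.7, 101 and 39.3 CPM in resting, stimulated and difamilast libraries, then Apobec3 (0.989) and Flt1 (0.987). Adora2a was nearest Dusp16 (0.998), a MAP kinase phosphatase gene, then Ppp1r3b and Tmtc2 (both 0.996). Adora2b was nearest Serpina3i (0.999) and Serpina3h (0.998), which are close paralogs whose reads may be split between them, and the survival gene Bcl2l1 (0.998). Nearest genes were Spata13 for Adora3 (0.989), Ywhaq for Ptger3 (0.989), Nrp1 for Ptger4 (0.979), Cbfa2t2 for Ptgir (0.952) and Noc4l for Ptger2 (0.944). Among the receptors themselves, Adora2b had its highest correlation with Hrh2 (r = 0.88) and a strong inverse one with Ptger3 (r = -0.92), and Ptgir had r = -0.76 with Hrh2. All of these are descriptions over 9 libraries that share the groups and the scaling, with no test.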

How the data were processed

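The authors deposited raw read counts per gene symbol in 1 table with 1 column for each of the 9 libraries. Per the submitters' processing notes, cutadapt 4.1, Bowtie2 2.4.5 and GRCm38 were used; how reads were counted, with which annotation and whether by strand, is not given in the sources used here. Per the labels' protocols, cDNA was amplified whole before fragmentation, so long and short transcripts may differ in yield; the protocol names no molecular identifiers. Groups and replicate numbers came from sample titles.

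Counts were fitted with edgeR 4.0.16 (R 4.3.3) as a quasi-likelihood model of all 9 libraries without covariates, after the filterByExpr filter (count of 10, total of 15) and TMM scaling, leaving 6 residual degrees of freedom. P-values were adjusted by Benjamini-Hochberg over all 21341 tested genes and called at 0.05. The steps were tested on simulated counts in which every gene and library had the same variation beyond read sampling. Such counts do not bear on calls that depend on single libraries. Positions and transcript lengths came from GENCODE vM21 (GRCm38), which matched 34294 symbols; upstream sequences are from RefSeq (GRCm38.p6), which had 7 of the 8 receptors.

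Named genes were the 8 receptors, members of 4 lists (family members, ligand genes, other receptors, transducers) called with stimulation or difamilast, and the 3 nearest genes of each receptor, of which 5 receptors have the first alone named. Of the other receptors, only Gipr and those called with difamilast were named. Calcrl, Mc1r, C5ar1, Ccr2, Fpr1, Fpr2 and Ltb4r1, also called with stimulation, were left out above. Nt5e, Adora1 and the uncalled family members were named after their values were seen. The receptors, lists and alternatives were chosen with earlier results of these data known. Alternatives tried were no filter, the compared groups alone, limma-voom (limma 3.58.1), DESeq2 1.42.0, a block by replicate number, scaling by RLE, removal of a lowess length trend (span 0.3) and leaving out each library.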

Additional observations from a re-analysis of the deposited data

How the results depend on the processing

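Over 16 alternatives for each of the 24 receptor changes, 365 of 384 values kept their direction and their side of the threshold, 10 no longer passed, 6 newly passed and 3 changed sign. The 3 all belong to Ptgir for difamilast against resting, which was 0.00 with limma-voom, 0.07 without resting replicate 1 and 0.05 without difamilast replicate 3, and ran from -0.13 to 0.07 when 1 library was left out. The number of receptors called lay between 5 and 6 for stimulation and for difamilast against resting. For difamilast against stimulated it lay between 2 and 5 and was 2 without any 1 of the stimulated libraries or without difamilast replicate 2; the genes then lost are named beside their results. Over all genes that comparison called 735, and 1351 without a filter on low counts, 1673 in a fit of the compared groups alone, 1115 with DESeq2 and between 347 and 1693 when 1 library was left out, lowest without difamilast replicate 2 and highest without resting replicate 1. The lean towards higher calls, 471 against 264, shrank or turned without a filter (689 against 662), in the fit of the compared groups (831 against 842), without resting replicate 1 (870 against 823) and without difamilast replicate 3 (540 against 598). By the longest transcript in place of the median, the share of the Gi-coupled receptors moved to 50.0%, 10.7% and 16.6%. Libraries with the same replicate number did not deviate together (correlations from -0.40 to 0.42), so the numbers were not taken as pairs; with the replicate number as a block, 5, 4 and 5 receptors were called, as without it, and 6489, 700 and 6652 genes over all, in place of 6770, 735 and 7001. Of the 43 changes of other genes, 646 of 688 values kept their call and 42 no longer passed. Hrh2 and Ptger2 rest on as few as 26 and 30 counts in the shallowest library; the smallest change detectable at such counts was not tested.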
